A study of Mus musculus with 6 samples.

Results

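The clade B serpins described here are 8 protease inhibitor genes of mouse keratinocytes, namely Serpinb1a, Serpinb2, Serpinb3a, Serpinb5, Serpinb6a, Serpinb8, Serpinb9 and Serpinb12. They were taken by name from a table of read counts for 55367 gene names, in which 29 names begin with Serpinb, and all 8 passed the filter on low counts that 14916 genes passed. The cells were primary keratinocytes from the skin of day 2 pups of Ppp1r13lflox/flox;Cre+ERT mice on a mixed background of C57BL/6 and 129/Sv. In these mice loxP sites flank exon 8 of Ppp1r13l, the gene for iASPP, an inhibitory regulator of the p53 family, and a recombinase that 4-hydroxytamoxifen activates is expressed from the Rosa26 locus. The 3 iASPP KO cultures received medium with tamoxifen after 24 h, and the 3 iASPP WT cultures received medium without it. The labels give its dose as 1 mM and the methods as 1 μM, with 4 days of further culture. WT cells thus carried the same floxed alleles and the same recombinase as KO cells and lacked tamoxifen, so loss of iASPP and exposure to tamoxifen cannot be told apart. Each of 3 batches, as the labels name them, held 1 KO and 1 WT culture, and the comparison asked how loss of iASPP changed RNA levels in keratinocytes.

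Serpins present an exposed reactive centre loop to a protease as bait. When the protease cuts after the residue called P1, the loop inserts into the body of the serpin and the protease stays trapped in an inactive complex, and P1 largely decides which protease is caught. Clade B members lack a classical secretion signal and mostly work inside the cell, where they are known for protecting epithelial and immune cells against their own proteases. In the epidermis several are known as products of basal or differentiating keratinocytes.

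The stretch of coding sequence for the loop is shown for each member because it is where these otherwise related genes differ in the protease they can bind. Except for Serpinb5, each run goes 5′ to 3′ on the coding strand from the start of the hinge of the loop to its conserved end. Serpinb5 had no hinge match, and its run is the 31 codons that finish at the same conserved end. Capitals mark the P1 codon, taken as codon 17 of the run by alignment to the hinge.
Serpinb2: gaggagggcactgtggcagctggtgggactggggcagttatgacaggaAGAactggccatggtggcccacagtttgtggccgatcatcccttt
Serpinb5: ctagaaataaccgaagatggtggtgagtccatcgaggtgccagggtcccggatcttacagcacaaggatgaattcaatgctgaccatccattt
Serpinb6a: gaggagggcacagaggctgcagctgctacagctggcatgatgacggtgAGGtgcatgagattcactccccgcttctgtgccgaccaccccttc
Serpinb8: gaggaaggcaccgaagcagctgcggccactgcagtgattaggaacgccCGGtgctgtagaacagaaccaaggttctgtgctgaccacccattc
Serpinb9: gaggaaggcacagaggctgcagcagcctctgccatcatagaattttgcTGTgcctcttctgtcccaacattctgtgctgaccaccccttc
Serpinb1a: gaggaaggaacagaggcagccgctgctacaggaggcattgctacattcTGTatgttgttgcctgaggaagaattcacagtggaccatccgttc
Serpinb3a: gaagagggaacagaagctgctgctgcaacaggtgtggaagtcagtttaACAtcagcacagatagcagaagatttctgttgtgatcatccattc
Serpinb12: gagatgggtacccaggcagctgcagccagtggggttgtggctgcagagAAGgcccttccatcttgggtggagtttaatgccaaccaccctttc
The sequences come from GENCODE M21 transcripts on GRCm38, and every stretch lies inside the last exon of its gene. On chromosome 1 they cover chr1:107524783-107524875 for Serpinb2, chr1:106881835-106881927 for Serpinb5, chr1:107607167-107607259 for Serpinb8 and chr1:106956639-106956731 for Serpinb12, all on the plus strand, and chr1:107046082-107046174 for Serpinb3a on the minus strand. On chromosome 13 they cover chr13:33015693-33015782 for Serpinb9 on the plus strand, and chr13:32842884-32842976 for Serpinb1a and chr13:33918107-33918199 for Serpinb6a on the minus strand. Serpinb5, or maspin, is known as a serpin that does not inhibit proteases. Its stretch held no match to the hinge pattern, so none of its codons is in capitals. That pattern was relaxed until Serpinb2 and Serpinb12 matched, so the missing match does not test whether Serpinb5 inhibits proteases. Serpinb1a and Serpinb9 had the same P1 codon, TGT, while Serpinb2, Serpinb6a and Serpinb8 had AGA, AGG and CGG. The run of Serpinb9 held 30 codons and that of each other member with a hinge match 31, while the length for Serpinb5 was set in advance. Over the whole coding sequence any member matched its closest other member at 64.1% to 70.4% of aligned positions, with Serpinb6a and Serpinb8 the closest pair, and Serpinb2 and Serpinb5 the most distant at 59.1%.

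Library totals ran from 20202517 to 25157117 counts, and levels are given as counts per 1000000 counts of a library (CPM), with library sizes scaled by TMM, a correction for differences in composition. On this scale 3 counts correspond to 0.123 to 0.141 CPM. Ppp1r13l was lower in every KO culture than in every WT culture, at 12.6 ± 6.08 against 32.9 ± 12.1 CPM (SD, n = 3 each), with a log2 fold change of -1.45 ± 0.18 (SE). The keratinocyte markers summed to between 30695 and 38138 CPM in the 6 libraries, and the neutrophil granule markers, which mark the cells best known for the targets of Serpinb1a, to at most 0.494 CPM, with Elane, Ctsg and Ly6g at 0. Batch 3 stood apart from batches 1 and 2. The 8 fibroblast markers summed to 475 and 692 CPM in its KO and WT cultures against 38.9 to 53.7 CPM in the other 4, and the 11 markers of differentiated keratinocytes to 1150 and 1167 CPM against 3062 to 4075 CPM. The 12 leukocyte markers summed to 44.1 to 94.3 CPM over the 6 libraries, with Cd3e at 0, and the 5 melanocyte markers to 340 to 1082 CPM. The leukocyte sum hides opposite shifts. Lyz2 measured 59.1 and 49.6 CPM in KO and WT of batch 3 against 1.11 to 4.81 CPM in the other cultures. Over the 7 tested leukocyte markers, batch 3 differed from the mean of batches 1 and 2 by a median of 3.29 on the log2 scale. Only Cd68 and Csf1r among these were lower in batch 3, by -1.92 and -2.35.

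Among the 8 members, Serpinb5 fell in iASPP KO keratinocytes and none rose past the threshold of an adjusted p of 0.05. Of all 14916 genes tested, 1.95% passed as lower and 2.17% as higher (4.12% in all), and the median log2 fold change of the members and of all genes was 0.01. Serpinb5 was also the one member whose 3 KO values all lay below its 3 WT values, a pattern found in 5.46% of tested genes, while no member had all KO values above all WT values, as 5.26% did. Serpinb5 was lower in KO in all 3 batches, as were 19.7% of tested genes, and Serpinb8 was higher in all 3, as were 19.5%, so that 2 of 8 members kept 1 direction against 39.3% of tested genes. For the other 7 members the adjusted p ran from 0.501 to 0.965 in edgeR's quasi-likelihood test, and their intervals below show how large a change the 3 pairs leave possible. In RNA from whole cultures, fewer cells of a type and less RNA per cell cannot be told apart.

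Serpinb5, at chr1:106861173-106883348, encodes an epithelial serpin known as a suppressor of tumour cell invasion. It measured 618, 446 and 449 CPM in the KO cultures of batches 1, 2 and 3, and 735, 666 and 735 CPM in the matching WT cultures. The WT cultures lay close together and every KO culture was below all of them, with the KO culture of batch 1 the nearest. The means were 504.6 ± 98.5 CPM in KO and 711.9 ± 39.9 CPM in WT (SD, n = 3 each). In edgeR's quasi-likelihood test with batch as a term, the log2 fold change was -0.51 ± 0.12 (SE), with a 95% interval from -0.78 to -0.24 and a Benjamini-Hochberg adjusted p of 0.0442. Within batches 1, 2 and 3 the log2 ratio of KO to WT was -0.25, -0.58 and -0.71. The call was lost when batch 2 was left out (edgeR adjusted p = 0.260) and when batch was not a term in the fit (edgeR adjusted p = 0.973), where no gene of the table passed. Among the marker lists, Tgm1, Tgm3 and Sbsn of differentiated keratinocytes and Csf1r of leukocytes also rose in KO, while Krt10 and Flg of differentiated keratinocytes and Col1a2 and Col3a1 of fibroblasts fell, and their part in the difference of Serpinb5 was not tested. Between batches Serpinb5 varied little, with batch 3 differing from the mean of batches 1 and 2 by -0.08 on the log2 scale.

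**Figure D1:**
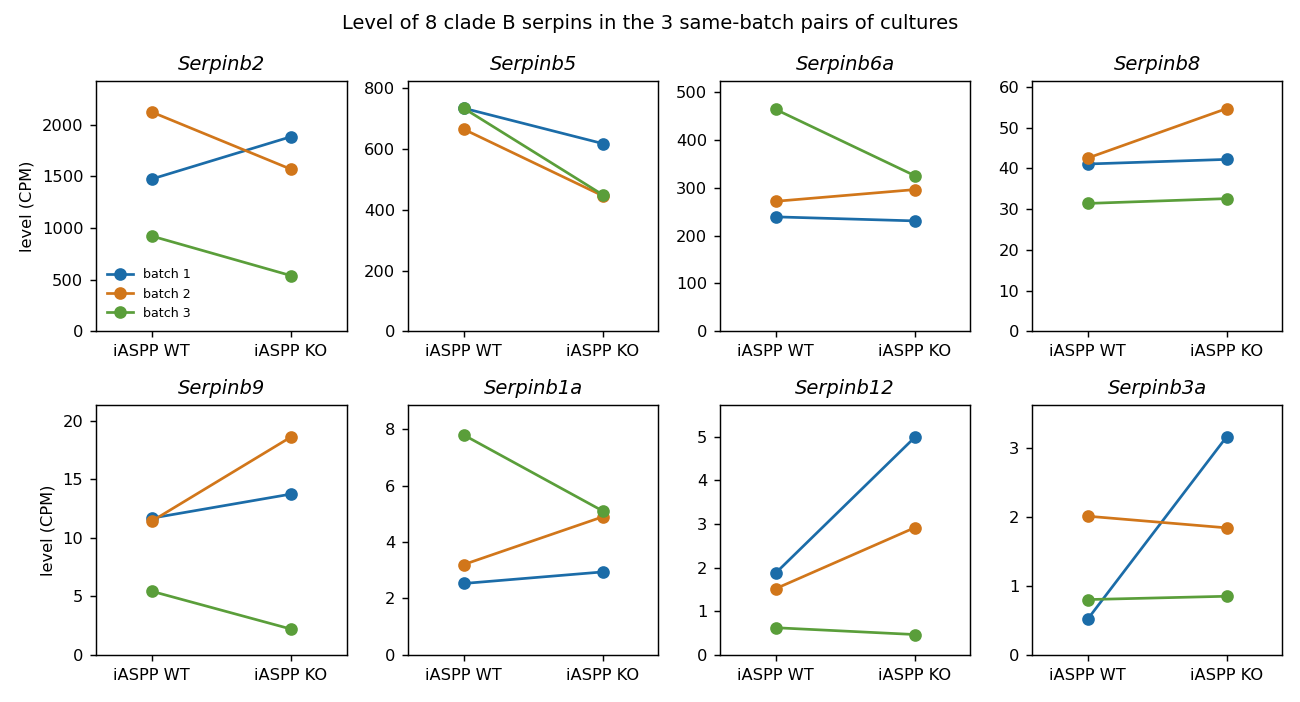
Level of each member in CPM (y axes from 0, one scale per gene) in the iASPP WT and iASPP KO culture of each batch, 1 point per culture, with lines joining cultures of one batch. The 3 KO points of Serpinb5 sit between 446 and 618 CPM, under its 3 WT points at 666 to 735 CPM, and the WT and KO points of the other 7 members overlap.

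Serpinb2 encodes plasminogen activator inhibitor 2, which inhibits urokinase and tissue plasminogen activator. Its level was 1883, 1569 and 539 CPM in KO and 1473, 2123 and 922 CPM in WT, in the order of batches 1 to 3. The order of KO and WT changed between batches, with KO above WT in batch 1 and below it in batches 2 and 3, and both cultures of batch 3 were the lowest of their groups. The log2 ratio was 0.35, -0.44 and -0.77 within batches, and the fitted log2 fold change of -0.29 ± 0.18 (SE) had an interval from -0.69 to 0.12 (edgeR adjusted p = 0.501). None of 8 tested genes of the plasminogen system passed in either direction, with a median log2 fold change of 0.08. Plau, which encodes urokinase, measured 640.6 ± 128.9 CPM in KO and 596.3 ± 96.8 CPM in WT, and Plat, for tissue plasminogen activator, 45.4 ± 7.20 and 40.8 ± 5.95 CPM (SD, n = 3 each). The urokinase receptor gene Plaur and the secreted inhibitor gene Serpine2 had log2 fold changes of -0.15 and 0.38. Plg, the gene of plasminogen itself, was below the filter. Those of the plasminogen-binding genes Anxa2, S100a10 and Plgrkt were -0.33, 0.09 and 0.07.

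Serpinb6a, Serpinb8, Serpinb9 and Serpinb1a encode inhibitors of granule and secretory-pathway proteases, and none passed the test. Serpinb6a, whose product inhibits cathepsin G, measured 231, 296 and 325 CPM in KO and 239, 272 and 464 CPM in WT. Batch 3 held the highest value of each group, and the groups overlapped. Its fitted log2 fold change was -0.15 with an interval from -0.45 to 0.15, and 29.3% of its exon bases lie opposite exons of Nqo2, Ripk1 and 1110046J04Rik on the other strand. Serpinb8, known for inhibiting furin, measured 42.2, 54.7 and 32.6 CPM in KO and 41.1, 42.5 and 31.4 CPM in WT. KO was above WT in each batch, by 0.04, 0.36 and 0.05 on the log2 scale, and the spread between batches was larger than these differences. The interval of its fitted log2 fold change of 0.15 ran from -0.16 to 0.46.

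Serpinb9, the cytoplasmic inhibitor of granzyme B, measured 13.7, 18.6 and 2.21 CPM in KO and 11.7, 11.4 and 5.43 CPM in WT. The KO culture was the higher in batches 1 and 2 and the lower in batch 3, with log2 ratios of 0.23, 0.70 and -1.27. The fitted log2 fold change of -0.05 ± 0.34 (SE) averages over these opposite directions, and its interval ran from -0.81 to 0.72. Serpinb1a, whose product inhibits neutrophil elastase, cathepsin G and proteinase 3, measured 2.94, 4.89 and 5.10 CPM in KO and 2.53, 3.20 and 7.79 CPM in WT. As for Serpinb9, KO was above WT in batches 1 and 2 and below it in batch 3. The fitted log2 fold change was 0.06, with an interval from -0.77 to 0.90.

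Serpinb3a and Serpinb12 were the least abundant members. Serpinb3a, a mouse relative of the human squamous cell carcinoma antigens, had 71, 41 and 20 counts in KO and 11, 49 and 18 counts in WT, or 0.850 to 3.16 CPM and 0.515 to 2.01 CPM. Batch 1 alone held a wide gap, with a log2 ratio of 2.43 against -0.12 and 0.08 in batches 2 and 3, and without batch 1 the fitted log2 fold change was -0.02. Serpinb12, known for inhibiting trypsin-like proteases, had 112, 65 and 11 counts in KO and 40, 37 and 14 counts in WT, or 0.467 to 4.99 CPM and 0.624 to 1.87 CPM. KO exceeded WT in batches 1 and 2, by 1.37 and 0.90 on the log2 scale, and was below it in batch 3, by -0.36. The fitted log2 fold changes were 0.80 for Serpinb3a, with an interval from -0.97 to 2.56, and 0.73 for Serpinb12, with an interval from -0.62 to 2.07. Both intervals include 0 and reach past 2 on the log2 scale.

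**Figure D2:**
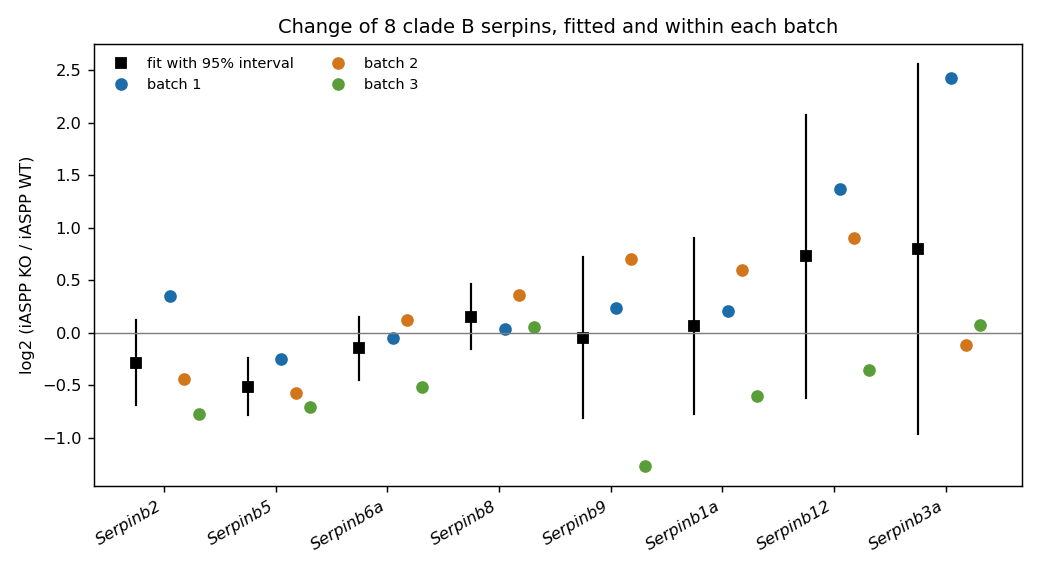
Log2 ratio of iASPP KO to iASPP WT (y axis) for each member, with the fitted value and its 95% interval as a black square and line and the ratio within each batch as coloured points. The interval of Serpinb5, from -0.78 to -0.24, is the one that does not include 0, and the widest intervals belong to the least abundant genes, Serpinb12 and Serpinb3a.

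Compared per length, as CPM per kb of counted exon, the members spanned a wide range of levels. In WT cultures Serpinb2 stood first at 641 ± 256 CPM per kb, followed by Serpinb5 at 258.9 ± 14.5, Serpinb6a at 60.1 ± 22.5 and Serpinb8 at 7.996 ± 1.26 (SD, n = 3 each). The ranges of these 4 did not overlap with one another, and Serpinb8 stood clear of Serpinb9 below it. Serpinb9, Serpinb1a, Serpinb3a and Serpinb12 followed at 2.72 ± 1.01, 1.96 ± 1.24, 0.680 ± 0.486 and 0.536 ± 0.258 CPM per kb, and in this lower group each gene's range overlapped with that of the next. The order in KO cultures was the same, and again the neighbours from Serpinb9 downwards overlapped. The 8 members held 82.5% to 97.2% of the summed CPM of all Serpinb names in a library, and Serpinb2 alone held 38.1% to 60.5%.

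**Figure D3:**
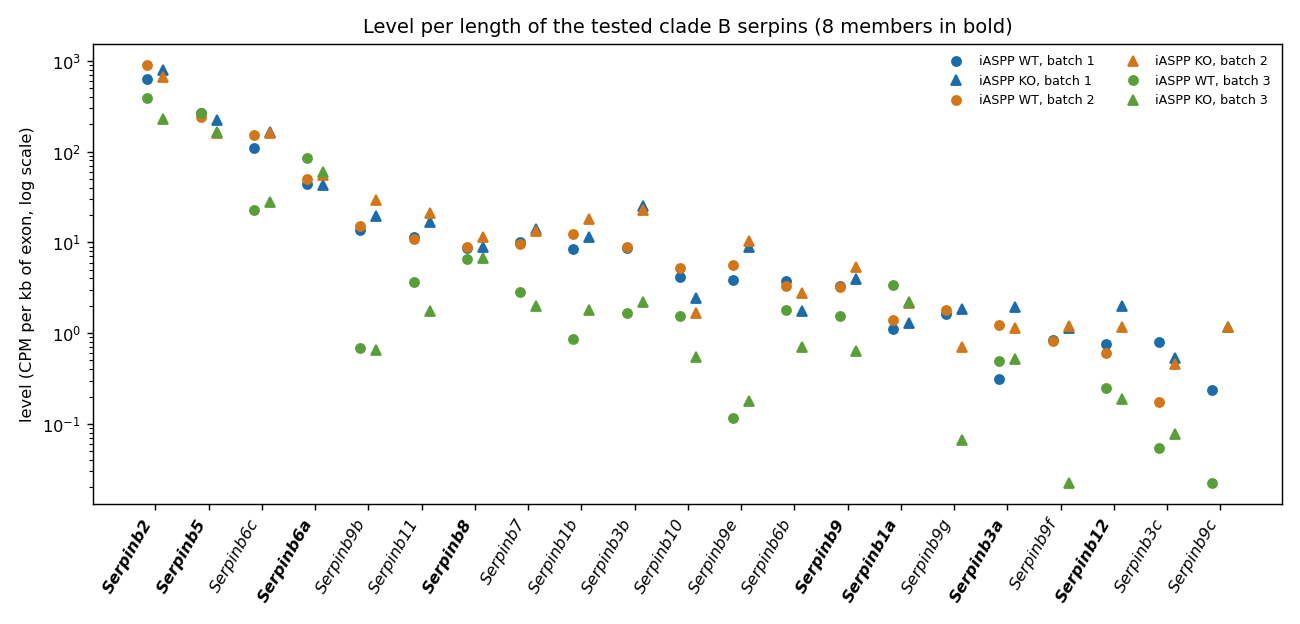
Level per length (y axis, CPM per kb of exon, log scale) of the 21 Serpinb genes that passed the filter, ordered by the WT mean, with circles for iASPP WT, triangles for iASPP KO and colour for the batch. The 8 members are named in bold, 4 values of 0 are not drawn on the log axis, and most green symbols (batch 3) of the genes that are not members lie well below the others.

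The members differed in how their levels varied between batches. The batch term of the fit passed for Serpinb2, Serpinb6a and Serpinb9, that is 3 of 8 members, against 15.8% of all tested genes, with edgeR adjusted p of 0.0050, 0.0299 and 0.0254. Batch 3 was below the mean of batches 1 and 2 by -1.30 on the log2 scale for Serpinb2 and by -1.86 for Serpinb9, and above it by 0.60 for Serpinb6a. Serpinb1a was also higher in batch 3, by 0.96, and Serpinb12 lower, by -2.18, and neither passed (edgeR adjusted p = 0.195 and 0.117). Serpinb8 and Serpinb3a had differences of -0.49 and -1.07, also not past the threshold. Of the 8 members, Serpinb12 was the one at least 4-fold lower in batch 3, which 3.07% of tested genes were. The fibroblast, differentiated keratinocyte and leukocyte markers given above also differed in the same batch, and their part in these levels was not tested.

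The 13 tested Serpinb genes that are not members were lower in batch 3, by a larger median difference than the members. The batch term passed for 10 of these 13, against 15.8% of all tested genes. In batch 3, 11 of 13 were at least 4-fold lower, against 3.07% of all tested genes. The median difference was -2.92 on the log2 scale against -0.78 for the members. Serpinb6b and Serpinb10, at -1.31 and -1.74, fell by less than the members Serpinb9 and Serpinb12, at -1.86 and -2.18. Serpinb3c, Serpinb9c, Serpinb9f and Serpinb9g had at most 3 counts in either culture of batch 3, and passed the filter through batches 1 and 2. The filter asks for expression in at least 3 libraries, so a gene seen only in the 2 cultures of batch 3 could not be tested. The shares of genes lower in batch 3 depend in part on this filter. Close relatives within a subfamily differed in how far they fell in batch 3. Serpinb1b, which matches Serpinb1a at 90.7% of aligned coding positions, measured 22.1 and 34.6 CPM in KO and 16.2 and 23.8 CPM in WT in batches 1 and 2, and 3.44 and 1.65 CPM in KO and WT of batch 3. Its level per kb was 7.64 to 8.99 times that of Serpinb1a in batches 1 and 2 and 0.253 and 0.807 times in batch 3. Serpinb6c stood in the same relation to Serpinb6a, at 2.46 to 3.85 times its level per kb in batches 1 and 2 and 0.266 and 0.468 times in batch 3. This lead depends on the counted exon lengths, 5409 bases for Serpinb6a and 1391 for Serpinb6c. In CPM Serpinb6a was the higher in every library, most narrowly in KO of batch 1, at 231 against 228 CPM. Serpinb9b exceeded Serpinb9 by 4.13 to 5.48 times in batches 1 and 2, and stood at 0.436 times its level in the WT and 1.02 times in the KO culture of batch 3. In these 3 pairs the gene with the higher level per kb in batches 1 and 2 lost its lead in batch 3. It did so in WT and KO alike for the first 2 pairs and in WT for the last. Serpinb3b kept its lead over Serpinb3a, at 7.16 to 27.2 times its level per kb in batches 1 and 2 and 3.38 and 4.25 times in WT and KO of batch 3.

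Between KO and WT, 1 of the 13 other Serpinb genes rose, 1 fell and 11 did not pass. Serpinb3b, the closest relative of Serpinb3a with 93.1% of coding positions in common, measured 41.96, 38.8 and 3.74 CPM in KO and 14.5, 14.9 and 2.81 CPM in WT. KO was above WT in each batch, and the groups overlapped only through batch 3. Its log2 fold change was 1.17 ± 0.23 (SE), with an edgeR adjusted p of 0.0222 that rose to 0.147 without batch 1 and 0.158 without batch 2. Reads could be missing from the counts of both relatives, since reads placed equally well at several sites were not counted. Of the 42-base windows of Serpinb3a transcripts 20.7% occur in another gene on either strand, most often Gm8080. For Serpinb3b this share was 21.6%, most often with Serpinb3c. For Serpinb1a this share was 5.08%, for Serpinb9 1.42% and for Serpinb8 0.331%, and for Serpinb5 and Serpinb12 it was 0. For Serpinb6a it was 26.5%, most often with Nqo2, and for Serpinb2 10.7%, all with Serpinb10. Exons of Nqo2 lie opposite those of Serpinb6a, and exons of Serpinb10 overlap those of Serpinb2. These 2 shares therefore include windows that lie at 1 place in the genome, and they do not measure reads placed at several sites. Among genes that are not members, the share was 82.3% for Serpinb9f, 60.1% for Serpinb9g and 35.0% for Serpinb9e. It was 18.4% for Serpinb9c, 17.6% for Serpinb3c and 14.8% for Serpinb6c, against 6.93% for Serpinb9b, 4.67% for Serpinb1b and 4.27% for Serpinb6b, and 0 for Serpinb11 and Serpinb7. Levels of the genes with large shares could be too low, and by how much was not tested.

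Serpinb10, which lies next to Serpinb2 on the same strand, measured 8.60, 5.75 and 1.91 CPM in KO and 14.4, 18.1 and 5.39 CPM in WT. It was lower in KO in each batch, with a log2 fold change of -1.29 ± 0.27 (SE) and an edgeR adjusted p of 0.0282, which rose to 0.212 without batch 2. Exons of the pair overlap, for 12.4% of the exon bases of Serpinb2 and 8.34% of those of Serpinb10, while 7.20% of the 42-base windows of Serpinb10 occur in Serpinb2, and the level of Serpinb2 was far above that of Serpinb10 in every library. Of the 11 that did not pass, Serpinb9e, Serpinb1b, Serpinb9b and Serpinb6c had log2 fold changes of 0.98, 0.64, 0.56 and 0.32, and Serpinb6b of -0.88. Serpinb11, Serpinb7, Serpinb3c, Serpinb9f and Serpinb9g measured 0.24, 0.19, 0.40, 0.66 and -0.13 on the same scale. Serpinb9c, at a mean of 0.171 CPM in WT, had a value of 3.11 with an interval from -0.40 to 6.63. The median over the 13 was 0.40 and 10 of 13 values were positive, against 4 of 8 for the members and 7548 of 14916 for all tested genes. Among the other 8 names, Serpinb3d, Serpinb1-ps1, Serpinb9h and Serpinb6d were at 0 in all libraries, and the other 4 were under the filter. None of 20 tested serpins of other clades passed in either direction, with a median log2 fold change of 0.07.

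**Figure D4:**
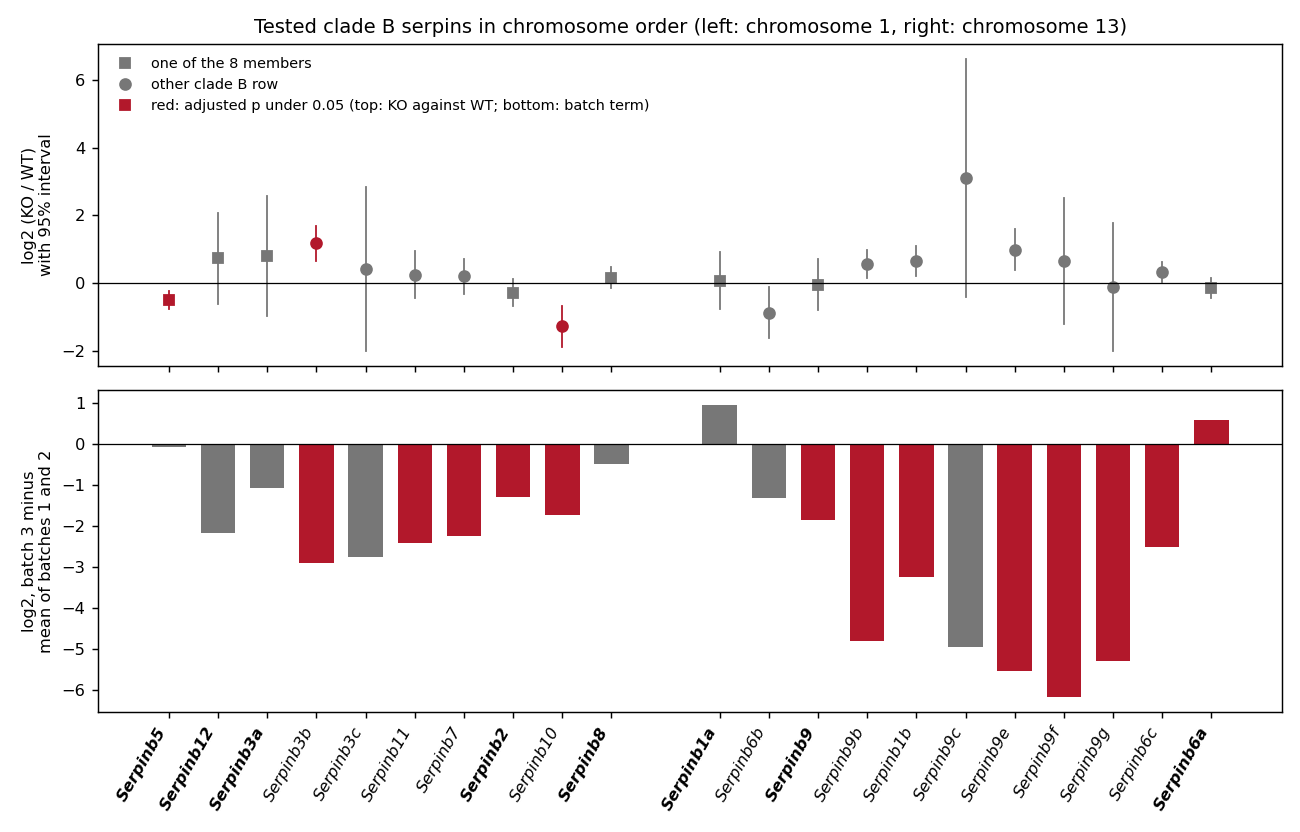
The 21 tested Serpinb genes in chromosome order, with the fitted log2 ratio of iASPP KO to iASPP WT and its 95% interval (top) and the log2 difference of batch 3 from the mean of batches 1 and 2 (bottom). Red marks an adjusted p under 0.05, squares and bold names mark the 8 members, and in the lower panel 2 members, Serpinb1a and Serpinb6a, lie above 0.

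The proteases that clade B serpins are known to bind were examined as a list of 16 genes, of which 9 were tested. Ctsl, which encodes cathepsin L, a lysosomal cysteine protease, was the one that rose, and none fell. It measured 3125, 4716 and 2780 CPM in KO and 1275, 2142 and 1268 CPM in WT, so that every KO culture exceeded every WT culture. The log2 fold change was 1.19 ± 0.11 (SE), with an edgeR adjusted p of 0.0011. The other cysteine cathepsins did not pass in this fit, with log2 fold changes of 0.37 for Ctsb, 0.64 for Ctsk and 1.08 for Ctss. Ctsb passed as higher in 3 of 10 alternative analyses, among them DESeq2 with batch (DESeq2 adjusted p = 0.0217). Ctss passed in 1 of 9, with no filter beyond 1 count (edgeR adjusted p = 0.0235), and Ctsk in none. The value of Ctss moved to 0.42 without batch 2, where its WT culture had 0 counts, to 1.42 without batch 1 and to 2.36 without batch 3, and its level was at most 1.56 CPM outside batch 3 against 29.996 and 20.8 CPM in KO and WT of batch 3. Furin, the protease Serpinb8 is known for, measured 61.0 ± 16.7 CPM in KO and 60.7 ± 7.45 CPM in WT (SD, n = 3 each). The inflammatory caspase genes Casp1 and Casp4 had log2 fold changes of 0.79 and 0.84 at means under 4 CPM and did not pass, and with 1 batch left out these ran from 0.222 to 1.504 and from 0.209 to 1.196, lowest without batch 2. Elane, Ctsg, Gzmb, Prss1 and Prss2, which encode classical targets of Serpinb1a, Serpinb6a, Serpinb9 and Serpinb12, were at 0 in all 6 libraries, and Prtn3 had 4 counts in 1 library and 0 in the others.

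The tested genes whose log2 CPM most resembled that of Serpinb5 over the 6 libraries were Spink8, Slc19a1 and Smg8, with Pearson's r of 0.992, 0.988 and 0.987. Spink8, a gene of the Kazal-type protease inhibitor family, measured 0.579 CPM in the KO culture of batch 1 and 0 in the others, against 1.23 to 1.51 CPM in WT. Slc19a1, the reduced folate carrier, ran from 17.5 to 20.7 CPM in KO and was near 22.5 CPM in every WT culture. In all, 38 tested genes had an r of 0.95 or more, and none of these 3 passed the KO against WT test. These coefficients describe 6 points that share conditions and batches, and no p is given for them.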

How the data were processed

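RNA of 6 cultures, 3 iASPP KO and 3 iASPP WT, was depleted of ribosomal RNA and sequenced as single reads of 42 bases. Per the labels and the study's methods, the authors trimmed adapters with Cutadapt 2.10, checked reads with FastQC 0.11.9, aligned them with STAR 2.7.3 to mm10 with GENCODE M25, and counted reads on exons by gene name and on the reverse strand with featureCounts 2.0.0. Per the file headers, no option to count reads placed at several sites or shared by overlapping genes was set. The authors deposited these raw counts without normalization. Their own table of fold changes and p-values was not used.

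Samples were grouped by their titles, and batch by the batch label. Counts were analysed with edgeR 4.0.16 in R 4.3.3, with filterByExpr by condition, TMM scaling and the quasi-likelihood test on a design of batch and condition, and p-values were adjusted over all 14916 tested genes (Benjamini-Hochberg, threshold 0.05). The script was tested on simulated data. Deviations from the condition means correlated at 0.302, 0.369 and 0.568 between KO and WT cultures of the same batch, and at -0.427 to 0.179 between other KO and WT cultures, so batch was kept as a block. Each within-batch ratio compares the log2 CPM of both cultures after a prior count of 2 was added, and fold change intervals are 95% intervals of the fit. Cultures of one condition differed by a chi-square of 35.4 to 147 per gene, far above sampling noise. Reads carried no molecular identifiers, so depth covers counting error only, and no source used here says whether batches came from separate litters, so p-values measure the spread between these cultures.

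Members and gene lists were chosen with earlier results of these data known. Named genes were the 8 members, Ppp1r13l, every other tested Serpinb gene, the listed proteases and plasminogen genes, and the 3 genes most like each member that passed. The values of 1 listed gene are not reported here. The hinge pattern was relaxed until Serpinb2 and Serpinb12 matched. Shared 42-base windows were computed from GENCODE M21 transcripts, on the same build. Exon overlaps were computed from the exon positions given with the counts, from GENCODE M25. Alternatives were DESeq2 1.42.0, other scalings, filters and dispersion, no block, and leaving out each batch.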

Additional observations from a re-analysis of the deposited data

How the results depend on the processing

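Serpinb5 kept its direction in all 10 alternative analyses and its call in 8 of them, with log2 fold changes from -0.64 to -0.41 and adjusted p from 0.0011 to 0.973 (edgeR, or DESeq2 where that was the alternative). With batch left out as a replicate block, edgeR called 0 genes higher and 0 lower, 691 had an unadjusted p under 0.05, and the counts were 0 for members lower and 0 and 0 for other Serpinb genes higher and lower. With no filter beyond 1 count, 624 genes were higher and 491 lower, against 323 and 291, and 3 other Serpinb genes were higher, against 1. Leaving out 1 batch at a time gave 169 to 793 genes higher and 117 to 662 lower, 0 to 1 members lower, 0 to 5 other Serpinb genes higher and 0 to 1 lower. Without replicate 2, Serpinb5 and Serpinb10 were no longer called. Without replicate 3, 793 genes were higher and 662 lower, and the 5 other Serpinb genes called higher were Serpinb3b, Serpinb11, Serpinb9b, Serpinb9c and Serpinb9e. DESeq2 with batch called 480 genes higher and 407 lower. The cause of these changes was not tested. No member rose past the threshold in any alternative. Values of Serpinb1a, Serpinb3a, Serpinb6a and Serpinb9, none of them called, changed sign in 3, 1, 1 and 2 alternatives. The other scalings moved the median log2 fold change of all genes by at most 0.01. With at least 10 counts in every library, 4 members passed the batch test instead of 3, Serpinb12 among them (edgeR adjusted p = 0.0463). At 11 to 112 counts per library, Serpinb3a and Serpinb12 had intervals that include changes of more than 2-fold. With 2 residual degrees of freedom, whether the effect of iASPP loss differed between batches could not be tested.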
